A study of Mus musculus with 17 samples.

Results

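The genes described here encode the proteins of the cytosolic ribosome. They were taken as all protein-coding genes whose mouse symbol is Rpl or Rps followed by a number and at most an a, x or l, together with Rpsa, Rplp0, Rplp1 and Rplp2. The rule found 80 of the 55421 genes counted, of which 49 belong to the large and 31 to the small subunit. It leaves out genes that code for ribosomal proteins or close relatives under other symbols, such as Rps3a1, Rpl22l1 and Fau, and 6 of these are given apart. RNA was sequenced from colorectal tumors that had formed after azoxymethane (AOM), a carcinogen, and dextran sulfate (DSS), which injures the colon epithelium. There were 3 libraries from Tyk2+/+ mice (Tyk2wt in the labels), 3 from Tyk2Δ/Δ mice (Tyk2KO), 7 from Tyk2fl/fl mice (Tyk2fl) and 4 from Tyk2ΔIEC mice (Tyk2DIEC). Tyk2Δ/Δ mice lack the floxed part of Tyk2, a Janus kinase, in every cell, and their Tyk2+/+ controls came from crosses of heterozygous mice. Tyk2ΔIEC mice carry floxed Tyk2 and Villin-cre, which deletes it in the intestinal epithelium and leaves the other cells of the tumor with an intact gene, and their controls were cre-negative Tyk2fl/fl mice. All mice were on a C57BL/6 background and all received AOM and DSS, so that no library stands for an untreated colon. The labels give no ages and do not say whether libraries of a group came from separate mice, and the p-values therefore speak only of how much the libraries vary.

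A ribosome is assembled from ribosomal RNA and a single copy of most of its proteins, and cells keep the mRNAs of these proteins in similar proportions. The mRNAs are short and abundant, and most begin with a run of pyrimidines, the terminal oligopyrimidine (TOP) tract, through which mTORC1 and the RNA-binding protein Larp1 control their translation and stability. In the intestine their output follows growth, with Myc and mTORC1 as well-known regulators. The genome also holds many processed pseudogenes of these genes, so that a part of their reads matches several places.

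The stretch around the annotated transcript start is shown for 4 of the genes with the largest fall in Tyk2ΔIEC tumors, for Rps6 and Rps4x, which did not pass the threshold there, and for Rpl27a, which has the longest pyrimidine run. Each is RefSeq sequence of GRCm38.p6 on the strand of the gene, from 10 bases before to 20 bases after the start, and capitals mark its longest uninterrupted run of C and T.
Rps28 (chr17:33824543-33824572, minus strand): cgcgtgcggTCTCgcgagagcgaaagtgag
Rpl39 (chrX:37085203-37085232, minus strand): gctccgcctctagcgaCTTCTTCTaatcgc
Rps21 (chr2:180257369-180257398, plus strand): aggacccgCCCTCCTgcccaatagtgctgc
Rpl38 (chr11:114668570-114668599, plus strand): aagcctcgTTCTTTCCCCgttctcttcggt
Rpl27a (chr7:109519185-109519214, plus strand): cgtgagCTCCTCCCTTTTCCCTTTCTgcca
Rps6 (chr4:86857348-86857377, minus strand): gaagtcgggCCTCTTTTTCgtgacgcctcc
Rps4x (chrX:102189372-102189401, minus strand): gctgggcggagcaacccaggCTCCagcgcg

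The table of starts held 72 starts for 60 of the 80 genes. A run of at least 8 bases made only of C and T lay in this window at 23 of the 72 starts, or 31.9%, against 11.2% of the 32851 starts of all genes and 8% of 75 starts of mitochondrial ribosomal protein genes. A run of the same length made only of A and G, the same motif on the opposite strand, lay at 3 of the 72 starts (4.17%) and at 13.3% of all starts. In Tyk2ΔIEC against Tyk2fl/fl tumors the median log2 fold change was -0.36 for the 23 genes with such a run at a listed start and -0.40 for the 34 tested genes without it. The longest runs of Rps28, which fell most, and of Rps4x, which was not called, are 4 bases each. A run of letters in this window is a description of the sequence and not a measured TOP tract.

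In RPKM, the reads of a gene scaled for the size of the library and per kilobase of annotated exon, averaged over the 17 libraries, Rplp1 had the highest level at 2035, followed by Rps15 at 945, Rplp0 at 812, Rpl4 at 787 and Rpl8 at 700. Rplp1 and Rplp0 form, with Rplp2 at 232, the stalk of the large subunit that recruits translation factors. All other members but Rps10 and Rpl24 lay between 42.8 (Rpl13a) and 700. This scale divides by all annotated exons, retained introns included, and so places Rps15a (52.3) and Rpl35a (43.8), whose annotated exons add up to 6270 and 3526 bases, among the lowest. Rps10 at 3.84 and Rpl24 at 1.05 stood far below the others. In the annotation used here, their exons overlap other genes on the same strand, over 20.6% of the exon bases of Rps10 and 47.0% of those of Rpl24. Gene counting by STAR leaves out reads that fall in an overlap of annotated genes. Rpl13a, at 42.8, has an overlap of 35.4%. The part of these overlaps in the low levels was not tested. Rpl24 received only 16 to 37 reads per library. Repeats of sequence also limit the count: of the 75-base windows of a member's transcripts, a median of 69.1% occurred in no other annotated gene, and this share was 10.8% for Rpl35, 15.4% for Rpl36a, and 15.9% for both Rpl5 and Rps6.

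**Figure D1:**
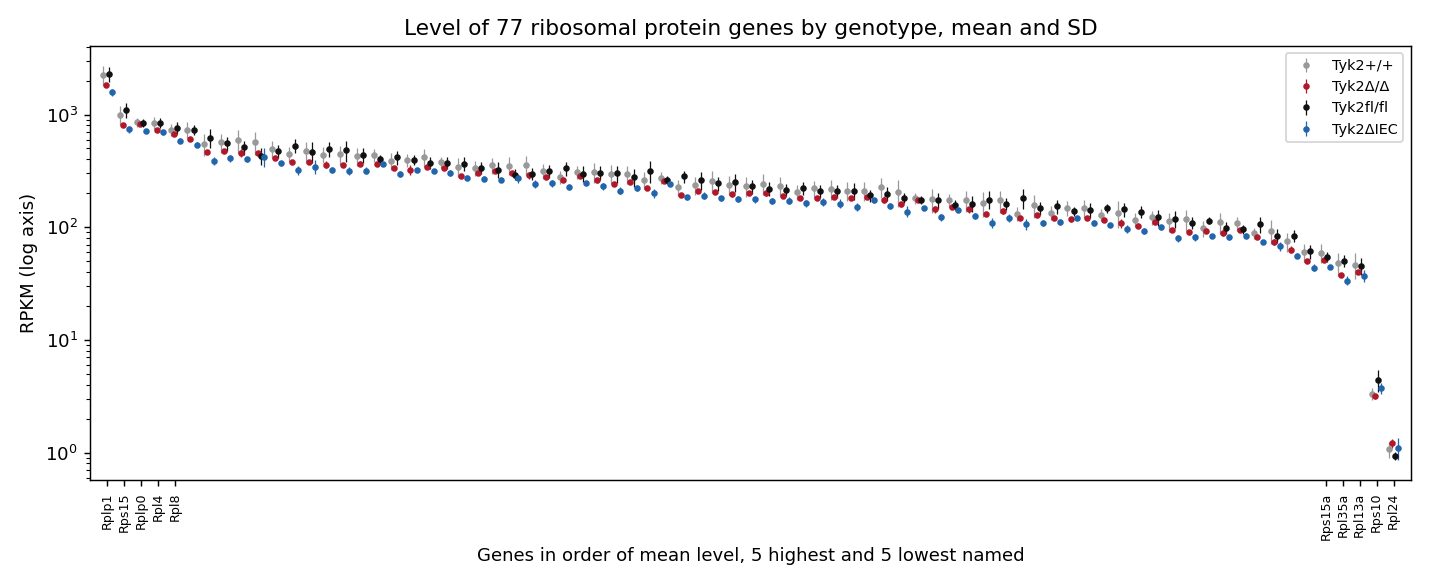
Level of the 77 genes that passed the low-count filter, as mean RPKM per genotype on a log axis, with bars for the SD over 3 (Tyk2+/+ and Tyk2Δ/Δ), 7 (Tyk2fl/fl) or 4 (Tyk2ΔIEC) libraries, ordered from the highest to the lowest mean, with names at the 5 highest and the 5 lowest. Rplp1 stands above all others at 2035, and Rps10 and Rpl24 stand apart at 3.84 and 1.05.

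Genes whose symbols end in l are relatives of a main gene, and 3 of the 4 were almost silent in these tumors. Rpl10l, a retrogene known from the testis, had no read in any library. Rpl39l had at most 3 and Rpl3l, the form of heart and skeletal muscle, at most 5 reads per library, and these 3 genes failed the filter. A count of 0 allows up to 3 reads in a library. Rps27l, a relative of Rps27 that p53 can induce, was expressed at 173 RPKM beside 295 RPKM for Rps27. In Tyk2fl/fl tumors Rps27l ranged from 130 to 179 CPM, counts scaled for the size of the library, with a median of 148, and in Tyk2ΔIEC tumors it was 107, 106, 107 and 131. Tyk2ΔIEC library 4 thus reached the lower end of the controls, and the gene fell by 0.41 on the log2 scale (adjusted p = 0.00826).

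The libraries held 19129696 to 21707373 counts on genes in Tyk2+/+, Tyk2Δ/Δ and Tyk2ΔIEC tumors and 29777763 to 35427965 in Tyk2fl/fl tumors, so depth and genotype cannot be told apart in the second experiment. Tyk2 itself was counted at 55.6 to 57.5 CPM in Tyk2+/+, 57.7 to 58.9 in Tyk2Δ/Δ, 42.7 to 54.6 in Tyk2fl/fl and 51.7 to 56.3 in Tyk2ΔIEC tumors. The deleted part includes exon 3, and the counts cover the whole gene, so they do not check the genotypes. Tyk2fl/fl libraries 1 to 3 held 40656 to 45446 counts of Xist, the RNA of the inactive X chromosome, and every other library held at most 106. Markers of epithelium were present in all libraries at summed levels of 7746 to 11554 CPM, with none of the 10 genes at 0.

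The 80 genes took 3.01 to 4.63% of all counts. Their share was 4.63, 3.22 and 4.0% in Tyk2+/+ and 3.30, 3.52 and 3.46% in Tyk2Δ/Δ tumors. Tyk2+/+ library 2 lay below all 3 Tyk2Δ/Δ libraries, and both other controls lay above all 3. In Tyk2fl/fl tumors the share ranged from 3.38 to 4.51% with a median of 3.98%, and in Tyk2ΔIEC tumors it was 3.16, 3.01, 3.01 and 3.23%. All 4 Tyk2ΔIEC libraries lay below all 7 controls. The Wilson 95% interval of a share was 0.0120 to 0.0180 percentage points wide and covers counting error only. The range of the shares within each group exceeds this error by far, although the intervals of Tyk2ΔIEC libraries 2 and 3 overlap. The mean share was 3.10 ± 0.113% (SD, n = 4) in Tyk2ΔIEC and 3.91 ± 0.395% (n = 7) in Tyk2fl/fl tumors, a difference of -0.810 percentage points (two-sided exact permutation test, p = 0.00606, the smallest that 4 against 7 libraries allow). It was 3.42 ± 0.112% (n = 3) in Tyk2Δ/Δ and 3.95 ± 0.705% (n = 3) in Tyk2+/+ tumors, a difference of -0.523 percentage points (exact permutation test, p = 0.4, where 0.1 is the smallest possible). The value in the first experiment depends on the controls: it was -0.184 without Tyk2+/+ library 1 and -0.888 without library 2. Over all 6 pairs of genotypes, the difference between Tyk2ΔIEC and Tyk2fl/fl tumors was the only one with an adjusted p under the threshold of 0.05 (exact permutation tests, adjusted p = 0.0364). Pairs of 3 against 3 or 3 against 4 libraries could not reach this threshold. All Tyk2Δ/Δ libraries lay above all Tyk2ΔIEC libraries, with the smallest p that 3 against 4 libraries allow (exact permutation test, p = 0.0571). Tyk2fl/fl minus Tyk2+/+ controls gave -0.0332 percentage points, well within their spread.

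**Figure D2:**
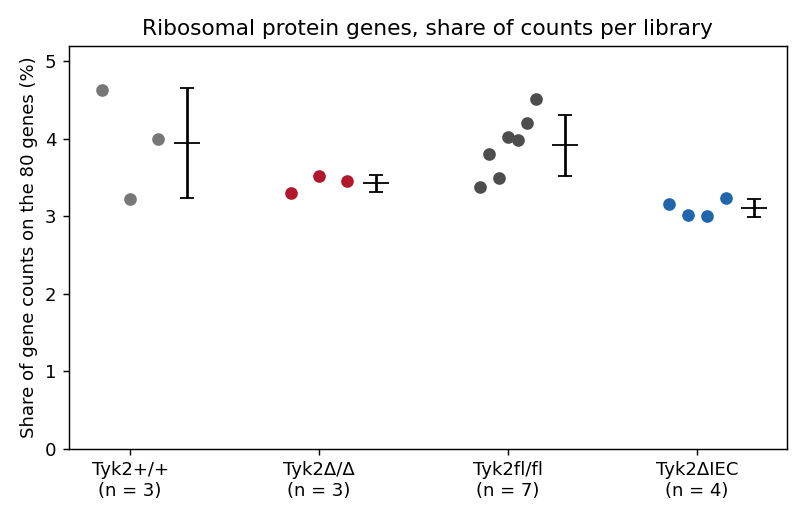
Percent of all gene counts that fell on the 80 ribosomal protein genes, with a point for each library and the mean ± SD of each genotype beside the points. The Tyk2ΔIEC libraries (3.01 to 3.23%) lie below every Tyk2fl/fl library (3.38 to 4.51%), whereas the Tyk2Δ/Δ libraries (3.30 to 3.52%) lie within the range of the Tyk2+/+ libraries (3.22 to 4.63%).

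Large and small subunit genes kept nearly the same proportion everywhere. The ratio of their summed counts was 1.3 to 1.36 in Tyk2+/+, 1.34 to 1.35 in Tyk2Δ/Δ, 1.31 to 1.38 in Tyk2fl/fl and 1.33 to 1.39 in Tyk2ΔIEC tumors. The 5 genes with the most counts, Rpl4, Rplp0, Rps3, Rps14 and Rplp1, held 17.3% of the reads of the group. Without these 5 the share still differed by -0.724 percentage points between Tyk2ΔIEC and Tyk2fl/fl tumors (exact permutation test, p = 0.00606).

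To ask which ribosomal protein mRNAs were lower in tumors without epithelial Tyk2, each gene was compared between Tyk2ΔIEC and Tyk2fl/fl tumors. Of the 77 genes that passed the filter, 60 fell and none rose at an adjusted p under 0.05 with edgeR's quasi-likelihood test. Among all 17668 genes tested 9.71% fell and 10.2% rose. The median log2 fold change of the 77 was -0.40, or -24.4%, against -0.00311 for all genes tested, and 76 of 77 had a negative value beside 50.4% of all genes. In 47 of 77 genes every Tyk2ΔIEC library lay below every control library, against 7.9% of all genes. Large subunit genes fell in 35 of 46 cases (median -0.38) and small subunit genes in 25 of 31 (median -0.41). No member fell past 2-fold. The count depends on single libraries: 33 genes were called without Tyk2ΔIEC library 3 and 35 without library 2. The share of all genes called lower was then 4.96% and 5.28%, and the median log2 fold change of the 77 was -0.40 and -0.39. Without Tyk2fl/fl libraries 1 to 3, which stand apart by Xist, 72 of 77 were called lower (11.6% of all genes). The difference of the share was then -1.08 percentage points (exact permutation test, p = 0.0286, the smallest that the remaining libraries allow).

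The largest of the 60 falls was that of Rps28 (chr17:33819027-33824562), a small protein near the mRNA channel of the small subunit. It ranged from 240 to 411 CPM in Tyk2fl/fl tumors, with a median of 307, and was 209, 171, 166 and 188 CPM in Tyk2ΔIEC tumors. The log2 fold change was -0.77 (SE 0.14, adjusted p = 0.00451), and the groups did not overlap. Rps29 (chr12:69157722-69159186), a zinc-binding protein of the small subunit, ranged from 297 to 450 CPM with a median of 359 in the controls and was 251, 220, 211 and 213 CPM in Tyk2ΔIEC tumors, a log2 fold change of -0.71 (SE 0.11, adjusted p = 0.00184). All 4 values lay below the lowest control. Rpl39 (chrX:37082520-37085402), which lines the exit tunnel for the growing polypeptide, had 193 to 317 CPM with a median of 258 in the controls and 157, 147, 148 and 178 CPM in Tyk2ΔIEC tumors. Its log2 fold change was -0.69 (SE 0.13, adjusted p = 0.00503), again without overlap.

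Rps21 (chr2:180257377-180258445), a small subunit protein, ranged from 398 to 678 CPM with a median of 478 in the controls and was 322, 296, 301 and 347 CPM in Tyk2ΔIEC tumors (log2 fold change -0.67, adjusted p = 0.00557). Rpl38 (chr11:114668524-114672331), whose loss in mice alters the axial skeleton, ranged from 133 to 242 CPM with a median of 162 and was 111, 104, 99.5 and 120 CPM in Tyk2ΔIEC tumors (-0.66, adjusted p = 0.0102). For Rpl36 (chr17:56613416-56614243), a large subunit protein, the controls ranged from 154 to 240 CPM with a median of 189, and the Tyk2ΔIEC tumors had 125, 121, 117 and 133 CPM (-0.62, adjusted p = 0.00379). These 3 genes did not overlap between the groups either. In each of the 6 genes Tyk2fl/fl library 7 was the highest, and library 1 or 3 was the lowest.

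**Figure D3:**
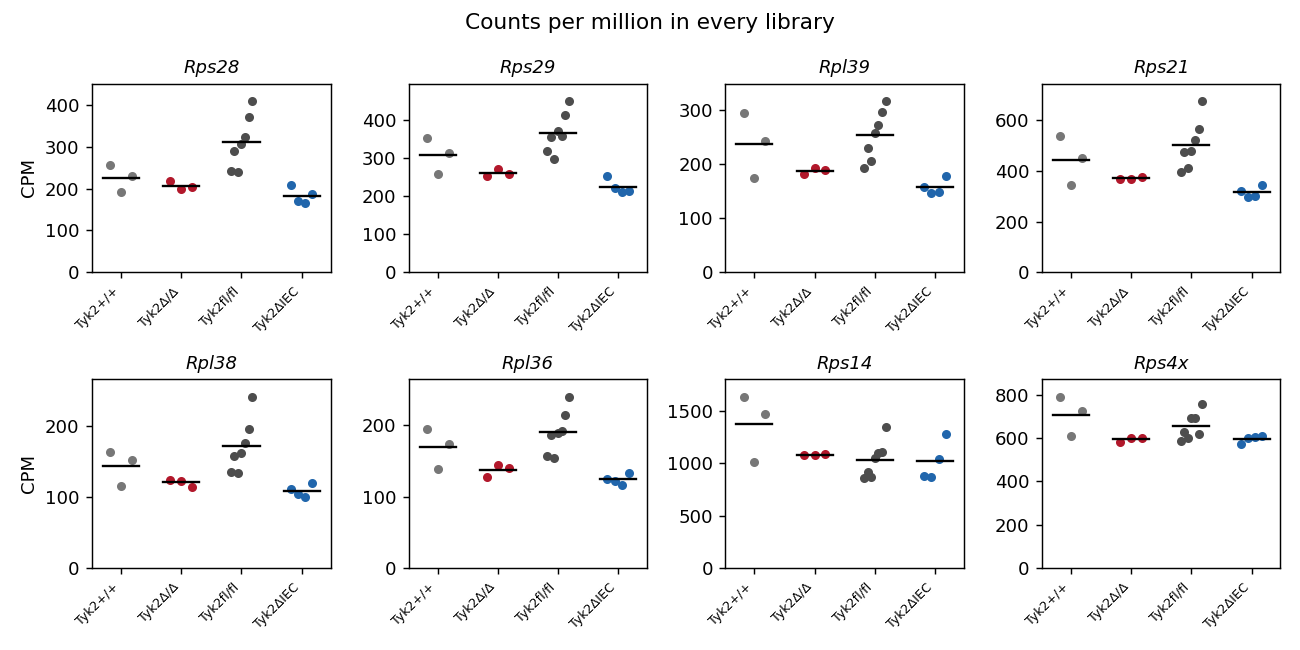
CPM of 8 ribosomal protein genes in every library, with a line at the mean of each genotype. The scaling was done within each experiment, so levels are comparable between Tyk2+/+ and Tyk2Δ/Δ and between Tyk2fl/fl and Tyk2ΔIEC. Rps28, Rps29, Rpl39, Rps21, Rpl38 and Rpl36 do not overlap between Tyk2ΔIEC and Tyk2fl/fl tumors, whereas Rps14 and Rps4x do.

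Among the 17 genes that were not called, Rps14 had a log2 fold change of -0.02 (SE 0.14, adjusted p = 0.927 with edgeR) and Rps3 of -0.11 (adjusted p = 0.416). Both were chosen after their values were seen. Rps14 was 880, 866, 1041 and 1279 CPM in Tyk2ΔIEC tumors and 854 to 1343 CPM, with a median of 1050, in the controls. Rps4x, encoded on the X chromosome, had 575, 599, 606 and 608 CPM in Tyk2ΔIEC tumors and 586 to 760 CPM, with a median of 626, in the controls (-0.13, adjusted p = 0.254). The other X-linked members fell, with log2 fold changes of -0.69 for Rpl39, -0.50 for Rpl36a and -0.25 for Rpl10. Rps6, which the S6 kinases phosphorylate downstream of mTORC1, had a log2 fold change of -0.14 (adjusted p = 0.291), and Rpl3, a core protein of the large subunit, of -0.13 (adjusted p = 0.234). Rpl11, which with Rpl5 binds Mdm2 when ribosome assembly is disturbed, fell by 0.32 (adjusted p = 0.0347), and Rpl5 had a value of -0.19 (adjusted p = 0.0982). In the stalk, Rplp1 fell by 0.54 (adjusted p = 0.00778), Rplp2 by 0.47 (adjusted p = 0.0237) and Rplp0 by 0.23 (adjusted p = 0.0488). Rpsa, a small subunit protein also known as laminin receptor, had a value of -0.31 (adjusted p = 0.0872). Rpl24 was the only member with a positive value, 0.23 on 16 to 37 reads per library (adjusted p = 0.412).

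The size of the fall moved with the length of the coding sequence. All 26 tested genes with fewer than 400 coding bases fell (median log2 fold change -0.49), as did 24 of 30 with 400 to 600 bases (median -0.40) and 10 of 21 with more than 600 bases (median -0.28). Over the 77 genes, Spearman's rho between coding length and log2 fold change was 0.65 (Pearson's r 0.57). Genes are not independent replicates, and all share the same 11 libraries. The same relation was present in other protein-coding genes, with a rho of 0.45 over 14601 genes. Of 211 other protein-coding genes with transcripts under 600 bases, 39.3% fell and their median was -0.41, whereas of 8420 with transcripts of at least 2500 bases 3.49% fell and their median was 0.09. Among the members, 23 of 25 with transcripts under 600 bases fell and their median was -0.46. The 2 members with transcripts of at least 2500 bases, Rps15a and Rps20, fell as well (median -0.44), and both have coding sequences under 400 bases. Within the group, the summed counts of the genes under 400 coding bases, divided by those of the genes over 600, were 0.562 to 0.595 in Tyk2ΔIEC and 0.637 to 0.730 in Tyk2fl/fl tumors. Other protein-coding genes with transcripts under 1000 bases took 4.61 to 5.30% of the counts in Tyk2ΔIEC and 5.68 to 7.13% in Tyk2fl/fl tumors, and these ranges did not overlap. The part of this shift in the lower ribosomal protein levels was not tested. The rho with GC content was -0.12.

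**Figure D4:**
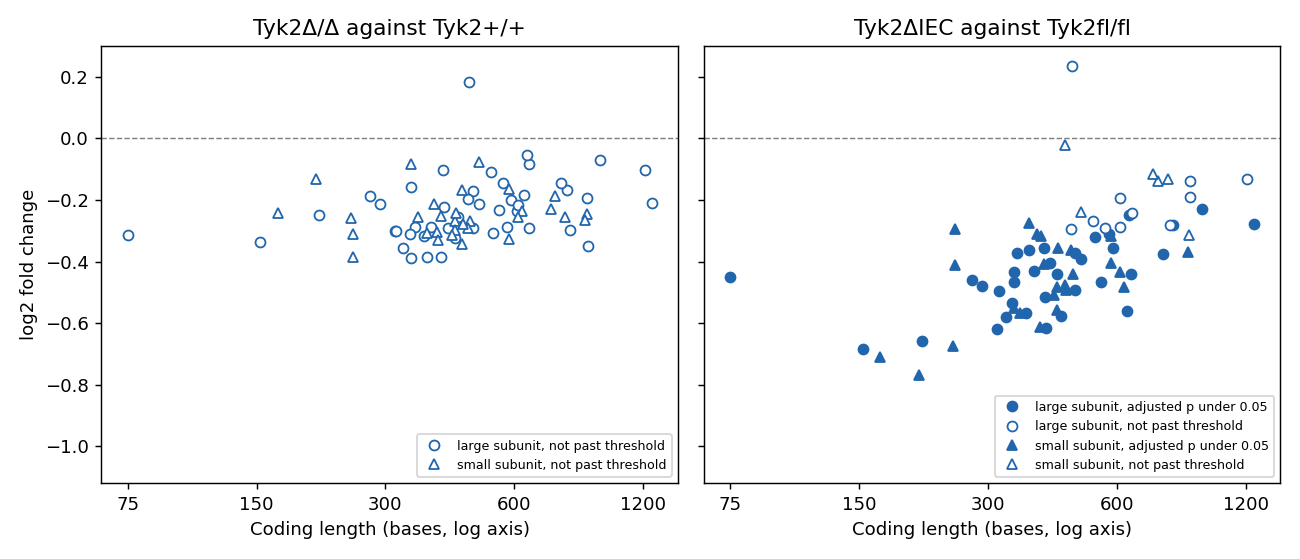
Log2 fold change of the 77 tested genes against the length of their coding sequence in bases (log axis), on the left for Tyk2Δ/Δ against Tyk2+/+ and on the right for Tyk2ΔIEC against Tyk2fl/fl tumors. Circles are large subunit and triangles small subunit genes, and filled symbols passed an adjusted p of 0.05. On the right the 26 genes under 400 bases are all filled, and 10 of 21 over 600 bases are. On the left none is filled.

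In Tyk2Δ/Δ against Tyk2+/+ tumors, where Tyk2 is absent from every cell, none of the 77 tested genes passed an adjusted p of 0.05 with edgeR, beside 2.13% of all 16179 genes that fell and 0.668% that rose. At an unadjusted p under 0.05 there were 13 of 77 (22.8% of all genes), limma voom called none, and DESeq2 called Rpl5 alone. The median log2 fold change was -0.25 against 0.00400 for all genes tested, and 76 of 77 values were negative, beside 49.3% of all genes. Rpl5 had 671, 492 and 591 CPM in Tyk2+/+ and 438, 451 and 487 CPM in Tyk2Δ/Δ tumors, with a log2 fold change of -0.35 (SE 0.11, adjusted p = 0.124 with edgeR). Rpl5 and Rps4x were the 2 members without overlap between the groups, beside 14.4% of all genes. Rps28 was 257, 193 and 230 CPM in Tyk2+/+ and 218, 199 and 204 CPM in Tyk2Δ/Δ tumors (-0.13, adjusted p = 0.482). Rpl39 was 295, 174 and 242 CPM in the controls and 181, 194 and 189 CPM in Tyk2Δ/Δ tumors (-0.34, adjusted p = 0.265). In Rps28 and Rpl39, Tyk2+/+ library 2 was below all Tyk2Δ/Δ libraries, and Tyk2+/+ library 1 was the highest of all 6. The most negative of the 77 values was that of Rpl30, -0.39 (adjusted p = 0.171), chosen after its values were seen, and Rps27l was at -0.39 as well (adjusted p = 0.235).

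The outcome of this comparison hangs on that control. Without Tyk2+/+ library 2, 39 of 77 genes were called lower, beside 3.69% of all genes, and the median log2 fold change was -0.38. The smallest adjusted p then belonged to Rps14 (log2 fold change -0.52, adjusted p = 0.0264). Without Tyk2+/+ library 1, none of the 77 was called, beside 332 of all 16486 genes tested that were called lower, and the median of the 77 was -0.11. Length showed a weaker relation, with a Spearman's rho of 0.38 over the 77 genes and 0.16 over 14005 other protein-coding genes.

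The change in Tyk2ΔIEC tumors was also compared directly with that in Tyk2Δ/Δ tumors, as a contrast over all 4 genotypes. None of the 77 genes passed an adjusted p of 0.05 in edgeR, beside 7.96% of 17252 genes, 8 passed an unadjusted p of 0.05, beside 24% of all genes, and limma voom called none. The median of the differences was -0.16 on the log2 scale. Rps28 had the smallest adjusted p (difference -0.64, SE 0.21, adjusted p = 0.0760), followed by Rps26, Rpl10a and Rps29 (adjusted p = 0.0815, 0.0888 and 0.0987). So a difference between the experiments was not shown for any member, although 60 were called in Tyk2ΔIEC and none in Tyk2Δ/Δ tumors.

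Across the experiments, genotype and experiment cannot be told apart, and the values share the Tyk2+/+ libraries. Tyk2fl/fl against Tyk2+/+ controls had a median log2 fold change of -0.00500, with Rps28 the single member called higher (0.46, adjusted p = 0.0496 with edgeR), beside 5.49% of all genes. Tyk2ΔIEC against Tyk2+/+ tumors had a median of -0.42, and 9 members were called lower, beside 1.7% of all genes. Among them were Rplp1, Rps15a, Rps27 and Rps27l. The 6 genes with the largest falls against Tyk2fl/fl tumors were not among them. Their adjusted p in edgeR ranged from 0.0522 (Rps29) to 0.264 (Rps28, log2 fold change -0.31).

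The members moved together from library to library. With the mean of each genotype taken off, the Pearson correlation of a gene with the mean of the other members had a median of 0.97 over the 17 libraries and was above 0.9 for 68 of 77 genes. All pairs of members had a median of 0.93, whereas all 17252 genes had a median of -0.02 with the mean of the members. These correlations share library preparation, depth and scaling. Rpl21, a large subunit protein, was among the genes that followed the mean most closely (0.992). Rpl24 (-0.51) and Rps10 (-0.08), the genes with the lowest levels, followed it least, and Rpl13a, of which 35.4% of the exon bases overlap other genes on its strand, was the next lowest at 0.84.

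As a library, Tyk2+/+ 1 stood above the mean of its group in 76 of 77 genes, by 0.24 on the log2 scale on average, and Tyk2+/+ 2 stood below it in 76 of 77, by a mean of -0.28. The Tyk2Δ/Δ libraries had means of -0.26, -0.20 and -0.20 against the same baseline, with 75 or 76 of 77 genes below 0. Tyk2fl/fl libraries 1, 2 and 3 had means of -0.24, -0.05 and -0.20, and libraries 4 to 7 had means of 0.04, 0.03, 0.14 and 0.29. Tyk2ΔIEC libraries had means of -0.38, -0.43, -0.44 and -0.29, each with 75 or 76 of 77 genes below 0. The spread of the 77 values within a Tyk2ΔIEC library (SD 0.15 to 0.20) was smaller than that of all genes (SD 0.40 to 0.44). These SDs were not matched for level, and nearly all members have far more reads than genes near the filter. In these libraries the genes under 400 coding bases had means of -0.37 to -0.56 and those over 600 had means of -0.19 to -0.31.

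**Figure D5:**
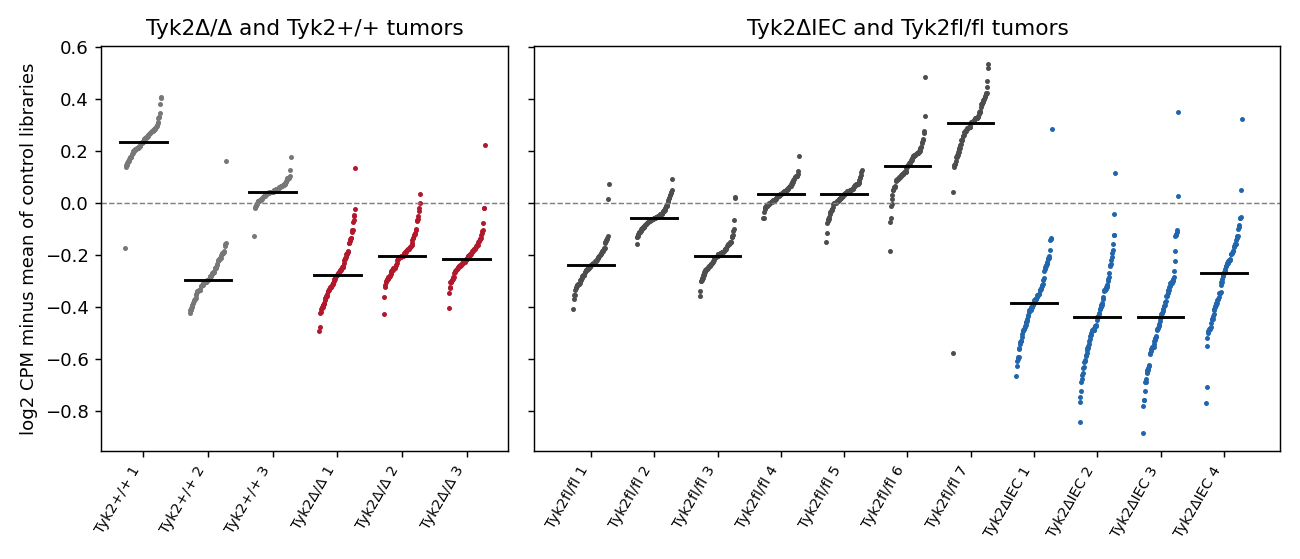
Log2 CPM of each of the 77 genes minus its mean over the control libraries of the experiment, for every library, sorted within a library, with a black line at the median. Most points of a library lie on the same side of 0, with means of -0.29 to -0.44 in the 4 Tyk2ΔIEC libraries and of -0.24 to 0.29 in the Tyk2fl/fl libraries. The point far below the others in Tyk2fl/fl library 7 is Rps10.

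Genes around the ribosome were grouped by role. Of the 6 ribosomal protein genes outside the naming rule, 4 fell in Tyk2ΔIEC against Tyk2fl/fl tumors (median log2 fold change -0.39). Among them were Rps3a1 (-0.41, adjusted p = 0.0123), a small subunit protein, and Rpl22l1 (-0.39, adjusted p = 0.0481), a relative of Rpl22. The counts for this and the following groups stand beside 9.71% of all genes that fell and 10.2% that rose. The groups were not matched for transcript length, with which the direction moved in this comparison. Of 8420 other protein-coding genes with transcripts of at least 2500 bases, 294 fell and 1429 rose. Of 211 with transcripts under 600 bases, 83 fell and 2 rose. The part of length in the changes of these groups was not tested. Of 18 elongation factor and other TOP genes, 8 fell and 1 rose (median -0.23), with Eef1d at -0.46 (adjusted p = 0.00511) and Btf3 at -0.33 (adjusted p = 0.0137), while Eif3a rose by 0.29 (adjusted p = 0.00674). Of 24 other initiation factors 3 fell and 2 rose (median -0.04), shares near those of all genes.

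Ribosome assembly factors showed no common direction in these tumors. Of 38, 4 fell and 4 rose (median 0.02), shares near those of all genes, with Ddx21 at 0.36 (adjusted p = 0.00678), Mybbp1a at 0.33 (adjusted p = 0.00540) and Pno1 at -0.25 (adjusted p = 0.0126). Of 14 RNA polymerase I genes, 4 fell and 1 rose. Polr2f, a small subunit shared by the nuclear RNA polymerases, was at -0.59 (adjusted p = 0.00183) and Polr1a, the largest subunit, at 0.29 (adjusted p = 0.00857). Of 21 growth regulators, 1 fell and 4 rose (median 0.11). Mtor, the kinase of mTORC1, was at 0.47 (adjusted p = 0.00253), Tsc1, which restrains it, at 0.28 (adjusted p = 0.0189), and Eif4ebp1, an inhibitor of initiation that mTORC1 inactivates, fell by 0.45 (adjusted p = 0.0145). Within genotypes the correlation with the mean of the ribosomal protein genes had a median of 0.65 for initiation factors, 0.36 for assembly factors and -0.08 for growth regulators.

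Mitochondrial ribosomal proteins, which are coded in the nucleus, fell in 40 of 77 cases (median -0.28) and none rose, with Mrpl52 at -0.75 (adjusted p = 0.00157), Mrpl34 at -0.59 (adjusted p = 0.00155) and Mrps15 at -0.44 (adjusted p = 0.00178). Their correlation with the mean of the cytosolic members within genotypes had a median of 0.77. Of 751 other protein-coding genes with transcripts from 600 to under 1000 bases, 33.6% fell, 11 rose and the median was -0.28. The part of transcript length in the fall of the mitochondrial ribosomal proteins was not tested. Of 13 mitochondrially encoded genes 6 fell (median -0.73), among them mt-Cytb (-0.78, adjusted p = 0.0144). Of 299 ribosomal protein pseudogenes 55 passed the filter, and 30 of these fell (median -0.98). A gene can pass through the Tyk2fl/fl libraries alone, where pseudogene reads were most frequent. The filter may thus have set a part of this direction. Pseudogene reads numbered 5.23 to 6.94 per 1000 member reads in Tyk2fl/fl and 3.28 to 4.10 in all other libraries, and cannot be told apart from misplaced reads of the parent genes.

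In Tyk2Δ/Δ tumors almost nothing around the ribosome passed the test. None of the mitochondrial ribosomal proteins, initiation factors, elongation and TOP genes, RNA polymerase I genes or pseudogenes was called by edgeR, with 7 of 77, 8 of 24, 4 of 18, 3 of 14 and 2 of 33 at an unadjusted p under 0.05, beside 22.8% of all genes. The same held for the 6 ribosomal protein genes outside the naming rule and for 11 mitochondrially encoded genes, with 1 and 2 at an unadjusted p under 0.05. Of 38 assembly factors 13 had an unadjusted p under 0.05 and 34 a negative value (median -0.12), and Ncl, the nucleolar protein nucleolin, fell by 0.51 (adjusted p = 0.0346). Of 21 growth regulators 8 had an unadjusted p under 0.05, and Mycl rose by 0.36 (adjusted p = 0.0457).

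In bulk tumor RNA, fewer cells with many ribosomes and less of these mRNAs per cell cannot be told apart. Between Tyk2ΔIEC and Tyk2fl/fl tumors, none of 10 epithelial, 10 smooth muscle or 12 tested leukocyte markers was called by edgeR, and none had an unadjusted p under 0.05. All 10 smooth muscle markers had positive values (median 0.56), and their summed level was 1484 CPM in Tyk2ΔIEC library 1, 185 to 239 CPM in the other 3 and 169 to 764 CPM in Tyk2fl/fl tumors. Without Tyk2ΔIEC library 1, 47 of the 77 ribosomal protein genes were called lower (median -0.41), beside 1457 of all 17911 genes tested. Of 10 fibroblast markers 5 fell, with Lum at -1.19 (adjusted p = 0.00540), and their summed level was 1302 to 1716 CPM in Tyk2ΔIEC and 1409 to 2329 CPM in Tyk2fl/fl tumors. Of 8 endothelial markers 1 rose, Tek at 0.57 (adjusted p = 0.0185). Among all genes 9.71% fell and 10.2% rose in this comparison. In Tyk2Δ/Δ tumors 7 of 10 smooth muscle and 6 of 11 tested leukocyte markers fell, beside 2.13% of all genes. Smooth muscle markers summed to 139 to 218 CPM against 277 to 471 CPM in the controls, and leukocyte markers to 117 to 157 CPM against 212 to 259 CPM. None of these markers was at 0 in a whole group. In Tyk2Δ/Δ tumors 1 of 10 fibroblast markers fell, Dpt at -1.46 (adjusted p = 0.00265). None of 10 epithelial or 8 endothelial markers was called by edgeR there, with 1 and 2 at an unadjusted p under 0.05. Their part in the levels of the ribosomal protein genes was not tested.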

How the data were processed

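Raw counts of reads per gene were deposited by the authors for each of the 17 libraries and as a table of each experiment, and the columns were identical to the single tables. Following the study's methods, tumors were macrodissected, and poly(A) RNA was made into stranded libraries and read from a single end. The authors let STAR (version 2.6.1a in the submitters' processing notes) align and count them. The notes give GRCm38 as genome. The counts carry no normalization. Symbols, classes and positions were taken from GENCODE release 21, and 54673 of 55421 identifiers, with all 80 members, matched with their version. The release the authors name is another one.

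Within each experiment, genes were filtered with filterByExpr (minimum count 10, total of at least 15). TMM scaling was followed by the quasi-likelihood test of edgeR 4.0.16 in R 4.3.3, adjusted over all genes by Benjamini and Hochberg. A gene was called at an adjusted p under 0.05, with no minimum fold. Each SE is the fold change on the log2 scale over the square root of its F value. The difference of both changes and comparisons across experiments used all 4 genotypes in a single fit. CPM values are scaled counts. Log2 CPM in the library plots used an offset of 0.5. Shares of counts were compared with exact permutation tests in SciPy 1.17.1. DESeq2 1.42.0, limma 3.58.1 (voom), other scalings and filters, a replicate block and leaving out libraries served as alternatives. The pipeline was tested on simulated data. Matplotlib 3.10.9 drew the figures.

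Members and lists were chosen with earlier results of these data known. Named were the 6 called members with the largest changes per direction, the 5 with the highest and lowest level, X-linked members, genes with an l suffix and their parents, Rpsa, the stalk genes, Rps6, Rpl5, Rpl11, genes under the filter, the 3 most and least like the rest, and up to 3 genes of each other list by adjusted p. Genes such as Rps14 and Rps3 were added after their values were seen, and some genes that the rule names are not reported here. Start windows are RefSeq sequence of GRCm38.p6.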

Additional observations from a re-analysis of the deposited data

Results flagged for a closer look

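The CPM of each named gene and 4 summary measures were examined in Tyk2fl/fl and in Tyk2ΔIEC tumors for a library far from the rest, in 68 groups of values, and chance alone flags about 1 in 20 such groups. In 4 of them a library stood apart. Rps15a was 291 CPM in Tyk2ΔIEC library 4, above 271 to 273 in the others. Rps27l was 131 CPM in the same library, above 106 to 107 in the others. Rplp0 was 1129 CPM in Tyk2ΔIEC library 3, below 1208 to 1223 in the others. Rpl24 was 0.789 CPM in Tyk2fl/fl library 6, below 0.951 to 1.04 in the others, on very few reads. No member's change differed between the experiments at the threshold.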

How the results depend on the processing

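In Tyk2ΔIEC against Tyk2fl/fl tumors the number of members called lower was 57 to 61 under other scalings, other filters, limma voom, DESeq2 and the fit of 4 genotypes, 33 to 66 with a library left out, and 0 with a minimum of 2-fold. Among all genes, 1385 to 2145 of 14901 to 32955 tested were called lower under the first kind of setting. With a library left out it was 892 to 1845 of 17359 to 17991. Under all 22 settings of the fit at an adjusted p of 0.05, 28 members were called, among them Rps28, Rps29, Rpl39, Rps21, Rpl38, Rpl36, Rpl36a, Rpl35a, Rplp1, Rps15 and Rps27l. In Tyk2Δ/Δ against Tyk2+/+ tumors the count was 1 with DESeq2, beside 891 of 16868 genes tested. With a library left out it was 0 to 39, beside 95 to 610 of all genes. Without Tyk2+/+ replicate 1, 71 of 77 members had a negative log2 fold change there, against 76 with all libraries. Among the named genes, 3 turned positive in that setting. With a library left out Rps10 ranged from -0.151 to 0.0220, Rplp0 from -0.140 to 0.00361 and Rpl10 from -0.128 to 0.0306. None of these passed the threshold. The share differed by -0.711 to -0.899 percentage points with a library left out in the second experiment and by -0.184 to -0.888 in the first.

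Replicate numbers occur in both groups of a comparison, except 5 to 7, which only Tyk2fl/fl tumors have. The labels do not say that the numbers mark a shared mouse or day. The deviations of same-numbered libraries correlated at -0.089, -0.111 and -0.0053 in the first experiment and at -0.366, -0.102, 0.068 and 0.019 in the second. Correlations of so few pairs of libraries cannot show whether the numbers mark pairs. With the replicate number as a block, 28 members were called in the second experiment and 0 in the first, where 1.37% of all genes were called lower. In the second experiment, Tyk2fl/fl libraries 5 to 7 have no partner and add nothing to this fit. It compared libraries 1 to 4 of both groups, so the block and the loss of these controls cannot be told apart. In the second, 3.42% of all genes were then called lower, against 9.71% without the block, and the median log2 fold change of the members was -0.28 against -0.40.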
